A study of Drosophila melanogaster with 8 samples.

Results

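The comparison described here set midguts of Drosophila larvae labelled as lacking Pngl against midguts of heterozygous larvae, gene by gene. Pngl is the fly peptide N-glycanase, the counterpart of human NGLY1, a cytosolic enzyme that cuts N-linked glycans from glycoproteins. The libraries were chosen by genotype alone: 2 labelled Pngl-/- (y w; Pngl[ex14]/Pngl[ex14]) and 2 labelled Pngl+/- (y w; Pngl[ex14]/CyoKr>GFP), 4 of the 8 libraries of the series. The other 4 came from y w larvae, wild type for Pngl, and from larvae called Pngl-/-; Pngl Dp/+ (y w; Pngl[ex14]/Pngl[ex14] with the transgene PBac{Pngl[wt]Ch322-3O13}VK27, which carries Pngl). All larvae were in the third instar, 96 h after egg laying, and each library pooled dissected midguts of males and females, with 40 midguts given per genotype in the labels. The y w background was shared by all groups. Besides the second copy of Pngl[ex14], the Pngl+/- larvae differed from Pngl-/- by a whole second chromosome, the balancer CyO with its Kr>GFP insertion. The groups were matched by age, and the study describes Pngl-/- larvae as delayed in development, so a difference of genotype and one of stage cannot be told apart.

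Glycoproteins that fail to fold in the endoplasmic reticulum (ER) are moved to the cytosol, where the N-glycanase strips them of glycans before the proteasome degrades them. In mammals NGLY1 also acts on NRF1, a transcription factor that raises the genes for proteasome subunits, and the fly gene of this family is cnc. The larval midgut is a tube of enterocytes that secrete proteases, lipases and glucosidases, with enteroendocrine cells, progenitors and a sheath of visceral muscle. A peritrophic matrix of chitin, chitin-binding proteins and mucins lines its lumen. In flies generally the Imd and Toll pathways control antimicrobial peptides, and the study adds that Foxo can induce them in the gut epithelium.

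The Pngl-/- libraries held 22059180 and 22893843 counts on genes and the Pngl+/- libraries 23812817 and 20989392. At least 1 count was found for 11765 and 11836 genes in Pngl-/-, and for 13125 and 12812 in Pngl+/-. Levels below are normalized CPM, CPM being a library's counts scaled to a common total, here with TMM factors, and folds are log2 fold changes of Pngl-/- against Pngl+/-. Of the 17713 genes counted, 7665 passed the filter on low counts and were tested with edgeR's quasi-likelihood test. Genes that differed by 1.5-fold or more with an adjusted p no greater than 0.05 were called higher or lower. Markers of the midgut were abundant. The summed level of 16 trypsin genes, made by enterocytes, was 80867, 86484, 63737 and 62207 normalized CPM in the 4 libraries, and that of 5 enterocyte markers was 794 and 765 in Pngl+/- and 1013 and 1015 in Pngl-/-. Markers of other tissues were also present. Those of the fat body summed to 53629 and 51337 in Pngl+/- and 24754 and 24679.9 in Pngl-/-, and those of the salivary gland to 7931 and 7741 in Pngl+/- and 5221 and 5375 in Pngl-/-. Haemocyte markers summed to 241 and 238 in Pngl+/- and 172 and 176 in Pngl-/-.

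Pngl itself (FBgn0033050, on 2R from 6017739 to 6020695 of the dm6 assembly) was not lower in the libraries labelled Pngl-/-. It was at 45 and 41.5 normalized CPM in Pngl+/- and 58.3 and 56.7 in Pngl-/-, a log2 fold change of 0.41 (standard error 0.06, adjusted p = 2.30e-05), under the 1.5-fold threshold. On average Pngl was at 32.5 in y w and 20.9 in Pngl-/-; Pngl Dp/+. The libraries labelled Pngl-/- thus held the most Pngl mRNA, and those with the Pngl transgene the least. The sources used here do not say which part of the gene Pngl[ex14] removes. The mRNA count therefore does not check the genotype, and the groups are those of the labels. The caspase gene Strica lies antisense to Pngl and shares 385 exonic bases with it. Strica was called higher (20.4 and 20.6 in Pngl+/- and 33 and 31.9 in Pngl-/-).

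In Pngl-/-, 581 genes were called higher and 1005 lower, 7.58% and 13.1% of the genes tested. Among the genes called higher were digestive lipases, amylases, glutathione S-transferases, antimicrobial peptides and lysosomal mannosidases. Among those called lower were every proteasome subunit and lysozyme tested, and part of the genes for the peritrophic matrix, fatty acid synthesis and larval serum proteins. The counts for the gene lists that follow are to be read against these 2 percentages. The libraries of the genotypes did not overlap for 581 of the 581 and for 1003 of the 1005 genes, but this was common: over all genes tested, called or not, both Pngl-/- libraries lay above both Pngl+/- libraries in 34.8% and below them in 43.8%. The median log2 fold change of all 7665 genes was −0.05 and the median standard error 0.08. A change of at least 4-fold (a log2 fold change of 2) was reached by 78 higher and 63 lower genes. The genes called lower took up 177314 normalized CPM in Pngl+/- and 89543 in Pngl-/-, and those called higher took up 105900.0 and 217132. In a bulk sample, fewer cells of a type and less RNA per cell cannot be told apart.

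**Figure D1:**
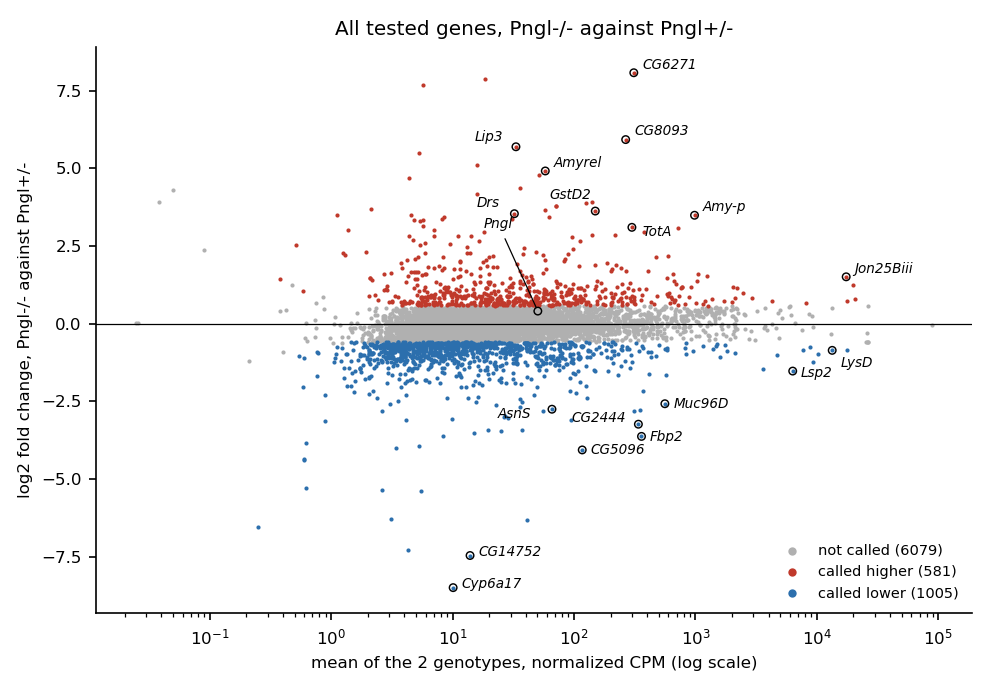
Each point is 1 of the 7665 tested genes, with the mean normalized CPM of the 2 genotypes on a log axis and the log2 fold change of Pngl-/- against Pngl+/- on the other. Red marks the 581 genes called higher and blue the 1005 called lower, with Pngl inside the grey band at 0.41 and CG6271 at the top at 8.08.

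Lipases were among the genes that rose most. Of 18 lipase genes that passed the filter in other libraries as well as in Pngl-/-, 7 were higher and 1 was lower, with a median log2 fold change of 0.44. CG31089 passed through Pngl-/- alone and is not counted. CG6271, a lipase of the pancreatic type on 3R, was at 1.65 and 3 normalized CPM in Pngl+/- and 629.9 and 608 in Pngl-/-. It rose by 8.08 on the log2 scale (standard error 0.11, adjusted p = 5.37e-17), and it was at 8.73 on average in y w and 37.6 in Pngl-/-; Pngl Dp/+. CG8093, an acid lipase gene, went from 8.74 and 8.48 to 521 and 527 (5.93, standard error 0.05). It was at 44.4 on average in y w and 107 in Pngl-/-; Pngl Dp/+, above Pngl+/- in both. Lip3, another acid lipase gene, was close to absent in Pngl+/- at 1.46 and 1.02 and reached 62.9 and 67.6 in Pngl-/- (5.69, standard error 0.11). Its level was 3.44 on average in y w and 10.3 in Pngl-/-; Pngl Dp/+. CG6277, next to CG6271 in the same family, rose by 3.88 on the log2 scale. magro (mag), a secreted lipase of the gut, was not called, at 1879 and 1807 in Pngl+/- and 2569 and 2601 in Pngl-/- (0.49). The lipase called lower was brummer (bmm), the lipase of intracellular lipid droplets, at 46.4 and 43.5 in Pngl+/- and 26.8 and 27.6 in Pngl-/- (−0.73, standard error 0.06, adjusted p = 2.66e-08).

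Enzymes of starch and sugar digestion followed. Of 13 maltase and amylase genes, leaving out tobi, which passed the filter through Pngl-/- alone, 5 were higher and 3 lower. Amy-p, which encodes the amylase of the gut lumen, was at 152 and 169 normalized CPM in Pngl+/- and 1889 and 1722 in Pngl-/- (3.49, standard error 0.07, adjusted p = 3.38e-15). Amy-d, its near-identical neighbour, gave 146 and 157 in Pngl+/- and 1340.1 and 1234 in Pngl-/-, and reads of the 2 copies may not have been told apart. The amylase-related gene Amyrel showed the largest fold of the list, from 4.02 and 3.38 to 110.0 and 115 (4.92). For these 3 genes both Pngl-/- libraries lay above all 6 others and both Pngl+/- libraries below them. Mal-A1, a maltase, was at 31.8 and 30.4 in Pngl+/- and 166 and 167 in Pngl-/- (2.42, standard error 0.04), and tobi, a glucosidase known as a target of insulin and glucagon-like signals, was at 0.945 and 0.751 in Pngl+/- and 8.17 and 9.34 in Pngl-/-. Mal-A2, whose fold was the lowest of the family and which is named here after its values were seen, fell by 3.05 on the log2 scale. Among 13 sugar transporters tested, 3 were higher and 2 lower. Among 10 genes for Niemann-Pick type C proteins, which bind and move sterols, Npc2e rose from 24.5 and 24.1 to 163 and 169.8 (2.78) and Npc1b, needed for sterol uptake by the midgut, from 61.2 and 56 to 121 and 128 (1.09).

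**Figure D2:**
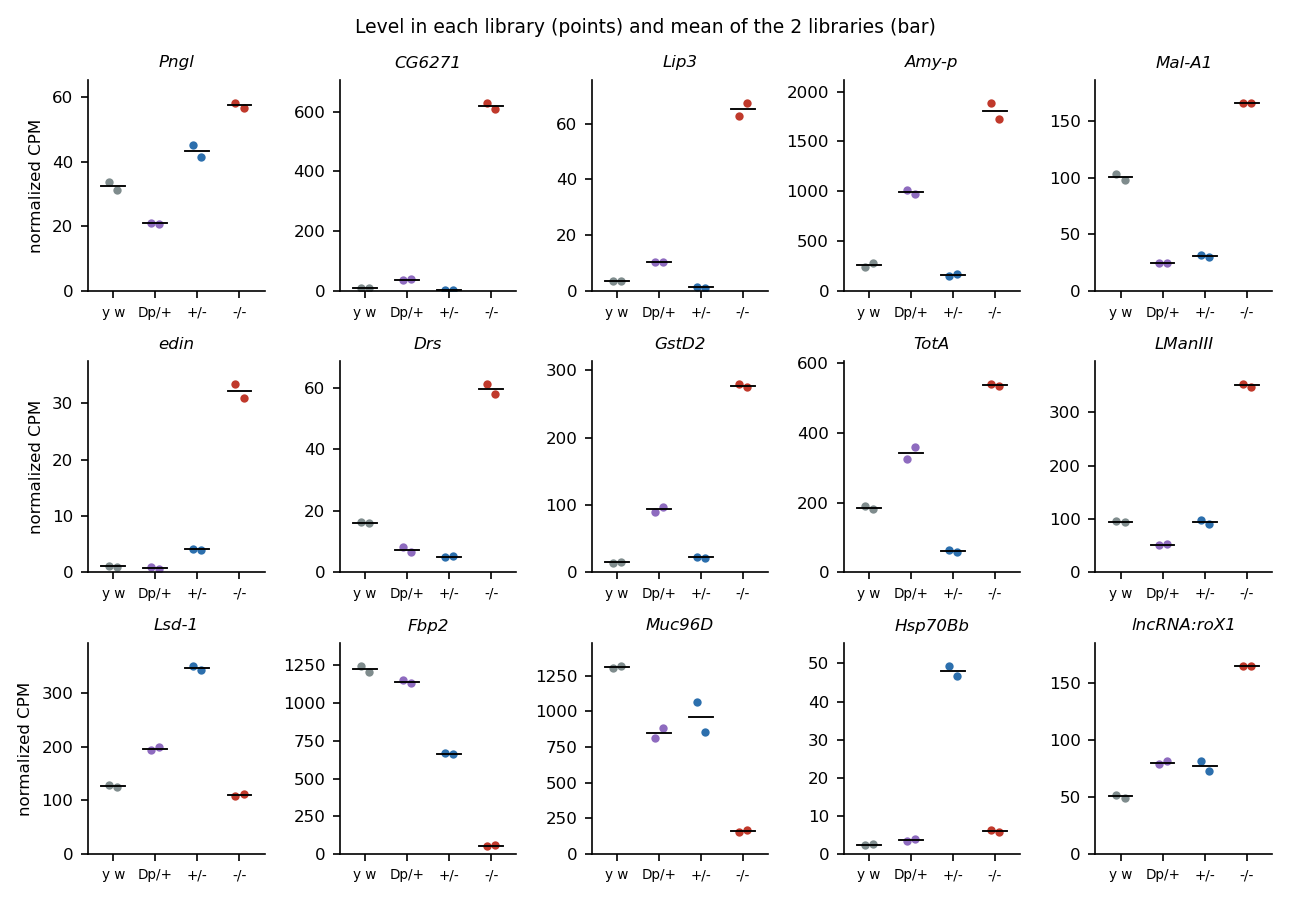
Normalized CPM of 15 genes in each of the 8 libraries (points, 2 a genotype) with the mean of each genotype as a bar, on linear axes that start at 0. Dp/+ stands for Pngl-/-; Pngl Dp/+, +/- for Pngl+/- and -/- for Pngl-/-. For CG6271 both Pngl-/- libraries lie at 608 or more and all 6 others at 39.9 or less, while for Hsp70Bb the Pngl+/- libraries stand apart.

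Proteases moved in both directions and by less. The Jonah genes encode chymotrypsin-like proteases of the larval gut, and 5 of 16 were higher and 1 lower. In Pngl+/- they took up 12% of all normalized counts and in Pngl-/- 15.6%. Jon25Biii had the largest gain in level of any gene, from 8846 and 9266 to 26366 and 25250.0 normalized CPM (1.51, standard error 0.06, adjusted p = 3.94e-12). CG18180, also of the chymotrypsin type, went from 11688 and 11947 to 28612 and 27758 (1.25). Jon99Ci had the largest fold of the family, 33.6 and 34.3 against 241 and 255 (2.87). In y w and Pngl-/-; Pngl Dp/+ it was at 365 and 331 on average, so that the Pngl+/- libraries were the ones apart. Jon65Aiii fell from 10980.4 and 11087 to 6649 and 6578 (−0.74), as did yip7, another chymotrypsin-like gene, from 9789.6 and 9859 to 5487 and 5456 (−0.84). Of 13 trypsins 3 were called higher and none lower, which became 2 and 2 with an offset for exonic length, and 2 were lower without Pngl+/- replicate 1 or without Pngl-/- replicate 1. Their summed share was 7.43% of the normalized counts in Pngl+/- and 5.51% in Pngl-/-. The paralogs deltaTry and gammaTry, which share sequence, had log2 fold changes of −0.58 and −0.57, just under the threshold.

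All 14 core particle genes and all 19 regulatory particle genes of the proteasome were called lower. Their median log2 fold changes were −1.13 and −1.12, in a range from −1.48 to −0.62 in the core and from −1.35 to −0.86 in the regulatory particle. The summed level of the core genes was 1718 and 1746 normalized CPM in Pngl+/- and 801 and 826 in Pngl-/-. Prosalpha6, an alpha ring subunit, had the largest fold, from 114 and 107 to 40.1 and 39.1 (−1.48, standard error 0.05, adjusted p = 5.90e-13). Prosalpha1 had the smallest, from 212 and 214 to 136 and 140.3 (−0.62), and it lost its call with a filter of 1 CPM, with TMM factors from all genes, with no filter and in a test against a 1.5-fold change. Among the regulatory subunits, Rpn2, a large scaffold subunit, went from 99.3 and 99.6 to 39.5 and 40 (−1.32), and the ATPase Rpt1 from 114 and 128 to 50.2 and 48.7 (−1.29). Both Pngl-/- libraries lay below both Pngl+/- libraries in each of the 33 genes, as they did in 43.8% of all genes tested.

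**Figure D3:**
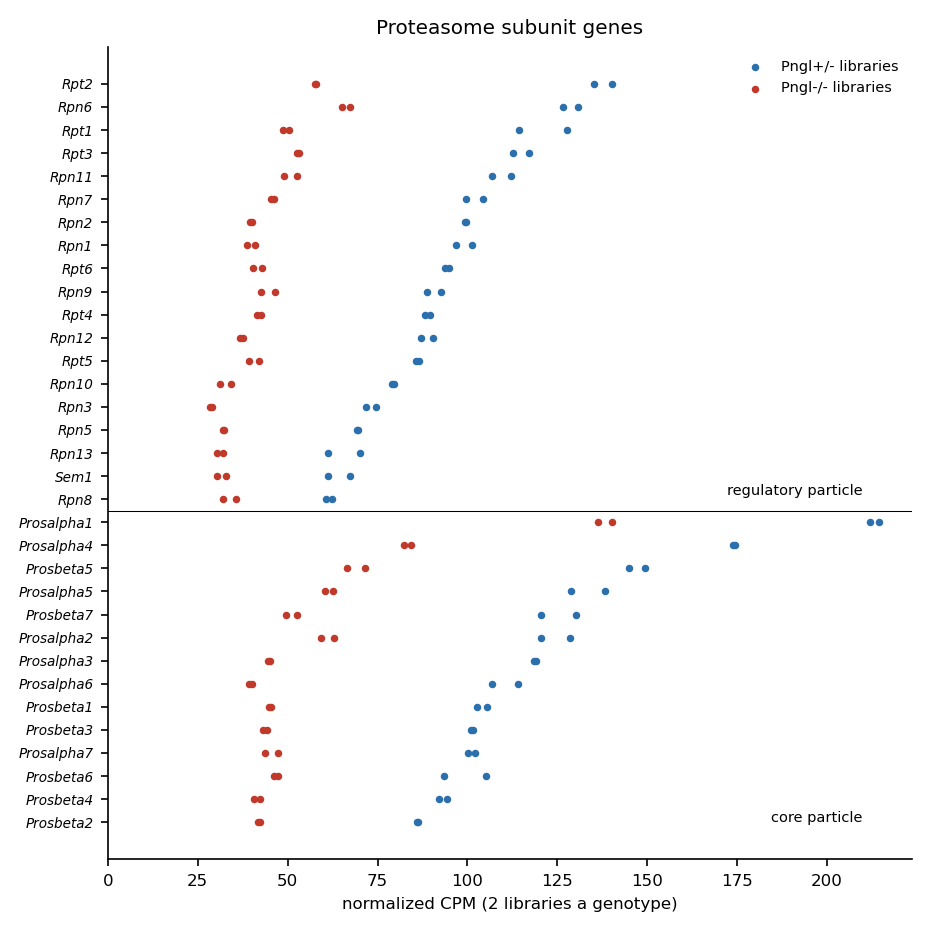
Normalized CPM of 14 core and 19 regulatory particle genes of the proteasome in the 2 Pngl+/- libraries (blue) and the 2 Pngl-/- libraries (red), on a linear axis. In every gene the red points lie to the left of the blue ones, with Prosalpha1 at 136 and 140.3 against 212 and 214 the closest in ratio.

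Factors that work with the proteasome were split. Of 11 genes for assembly factors, shuttles and ubiquitin, 4 fell and 1 rose. Pomp, the chaperone of core assembly, was at 82 and 90 in Pngl+/- and 30.8 and 30.6 in Pngl-/- (−1.49, standard error 0.06), though its exons overlap those of vari by 437 bases. Usp14, a deubiquitinase bound to the proteasome, fell from 58.8 and 58.9 to 22.9 and 23.6 (−1.34), and p47, a cofactor of the TER94 ATPase, from 149.9 and 153 to 34.9 and 32.5 (−2.17). For p47 the heterozygote was also above y w at 38.5 and Pngl-/-; Pngl Dp/+ at 45.5. The ubiquitin gene Ubi-p5E rose from 1605 and 1452 to 2689.8 and 2790.0 (0.84). The second ubiquitin gene, Ubi-p63E, had a log2 fold change of 0.05. cnc was at 93.8 and 93.8 in Pngl+/- and 101 and 102 in Pngl-/- (0.12, standard error 0.04), whereas Keap1, its inhibitory partner, rose from 6.9 and 7.83 to 15.8 and 14.9 (1.06, adjusted p = 6.30e-07). ref(2)P, the autophagy receptor p62 of flies, rose from 207 and 209 to 390.1 and 389 (0.91), the only 1 of 21 autophagy genes called.

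No gene of 10 ER chaperones and folding enzymes and none of 18 genes for ER-associated degradation and the unfolded protein response was called. Log2 fold changes ran from −0.42 to 0.33 in the first list and from −0.57 to 0.37 in the second. Hsc70-3, the fly BiP, was at 674 and 640.3 in Pngl+/- and 487 and 499 in Pngl-/- (−0.42, adjusted p = 1.97e-07), lower by less than 1.5-fold. Xbp1, the spliced transcription factor of the unfolded protein response, was at 345 and 347 in Pngl+/- and 301 and 297 in Pngl-/- (−0.21). Of 27 tested genes for the making and transfer of N-glycans, 5 were lower and none higher. Mgat1, which starts complex glycans, was at 10.3 and 8.16 in Pngl+/- and 4.43 and 3.78 in Pngl-/- (−1.18), with 798 bases of its exons shared with lms. Stt3A, a catalytic subunit of the oligosaccharyltransferase, fell by 0.65 on the log2 scale, while Stt3B had a log2 fold change of 0.09. The lysosomal alpha-mannosidases, which trim mannose from glycans, rose in 5 of 6 genes, with a median of 1.01. LManIII went from 98.9 and 90.1 to 353 and 348 (1.89, standard error 0.04, adjusted p = 1.41e-14) and LManVI from 409 and 398 to 988 and 974 (1.28). In all 6 genes both Pngl-/- libraries lay above all 6 others, LManII with a log2 fold change of 0.58.

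Immune effectors rose in part. Of 13 antimicrobial peptides of the Imd type, 6 were higher and 2 lower, with a median of 0.31. Def, the defensin, was at 3.83 and 4.13 in Pngl+/- and 22.2 and 22.3 in Pngl-/- (2.48, standard error 0.11, adjusted p = 3.13e-11). edin, a small secreted immune peptide left out of that count because it passed the filter through Pngl-/- alone, was at 4.21 and 4.02 in Pngl+/- and 33.4 and 31 in Pngl-/-. CecA1 and CecA2, near-identical cecropins whose reads may be shared, rose by 1.61 and 1.53 on the log2 scale. AttC, an attacin, was called lower, at 26.7 and 28.6 in Pngl+/- and 10.8 and 10.3 in Pngl-/- (−1.39). DptB had a fold under 1.5 (0.31), and DptA fell from 118 and 114 to 66.9 and 70.4 (−0.76, standard error 0.05). DptA stood at 96.7 in y w and 23.3 in Pngl-/-; Pngl Dp/+, so that the level in Pngl-/- lay between the 2.

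Of 7 Toll effectors that passed the filter, 5 did so through the Pngl-/- libraries alone and had to differ. The other 2 moved in opposite directions. Drs, the antifungal drosomycin, was at 4.91 and 5.31 in Pngl+/- and 61.1 and 57.8 in Pngl-/- (3.54, standard error 0.08, adjusted p = 2.21e-14). Drsl2, a drosomycin-like gene named after its values were seen, was called lower, at 19.2 and 14.9 in Pngl+/- and 5.47 and 5.96 in Pngl-/- (−1.58). Among the 5, given by their levels only, BomS1, a Bomanin, was at 1.42 and 1.93 in Pngl+/- and 29.6 and 30.9 in Pngl-/-, and BomS3 at 4.49 and 4.4 in Pngl+/- and 28 and 28.7 in Pngl-/-. GNBP-like3 was at 0.473 and 0.161 in Pngl+/- and 8.23 and 8.69 in Pngl-/-. lectin-24A, a C-type lectin, was at 4.16 and 3.06 in Pngl+/- and 100.1 and 100.2 in Pngl-/- (4.78), and BaraA1, whose transcript gives several immune peptides, at 9.12 and 10.4 in Pngl+/- and 131 and 135 in Pngl-/- (3.77). The counts of BaraA1 were almost those of FBgn0283462, to which the annotation used here gives no name, so reads may be shared. Of 13 peptidoglycan recognition genes tested, PGRP-SD, a secreted enhancer of Imd signalling, rose from 13.1 and 13.1 to 59.6 and 65.4 (2.25), and PGRP-LA and PGRP-SB1 were the others called higher. The amidase genes PGRP-SC1a and PGRP-SC2, which dampen Imd signalling, had log2 fold changes of −0.23 and −0.35. Of 25 signalling genes of Imd and Toll, 4 were higher and 2 lower. Rel, the NF-kappaB factor of the Imd pathway, rose from 43.9 and 46.5 to 75.6 and 79 (0.77, standard error 0.05), and grass, a protease upstream of Toll, fell from 36.4 and 38.7 to 10.7 and 10.6 (−1.82). The y w and Pngl-/-; Pngl Dp/+ libraries held grass at 10.9 and 11.5, close to Pngl-/-.

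All 7 lysozyme genes were called lower, with a median of −0.85. In the midgut these enzymes digest bacterial cell walls. They took up 3.46% of the normalized counts in Pngl+/- and 1.82% in Pngl-/-. LysD was at 16677 and 17766 in Pngl+/- and 9549 and 9494 in Pngl-/- (−0.85, standard error 0.06), LysB at 13346 and 13657 in Pngl+/- and 6953 and 6959 in Pngl-/- (−0.96) and LysE at 6249.6 and 6321 in Pngl+/- and 3091 and 3112 in Pngl-/- (−1.02). These genes are close copies, and the split of reads among them is uncertain. In LysB, LysD, LysE and LysP the Pngl+/- libraries stood above all 6 others, whereas in LysC, LysS and LysX those of Pngl-/- stood below. LysD was at 7962 on average in y w and 5477 in Pngl-/-; Pngl Dp/+, and LysE at 268 and 304, all under the level in Pngl-/-. The summed level of the 7 genes was 38198 and 39777 in Pngl+/- and 20793 and 20729 in Pngl-/-, with 25069 and 27224 in y w and 15185 and 13596 in Pngl-/-; Pngl Dp/+. The level in Pngl-/- thus lay between those of the other genotypes without the balancer.

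Part of the detoxification genes rose. Of 33 glutathione S-transferases, 16 were higher and 1 lower, with a median of 0.40. GstD2 was at 22.8 and 22 in Pngl+/- and 279 and 275 in Pngl-/- (3.63, standard error 0.05, adjusted p = 5.37e-17), GstD8 at 3.69 and 2.95 in Pngl+/- and 71.4 and 65.5 in Pngl-/- (4.35) and GstE3 at 47.3 and 46.8 in Pngl+/- and 169.5 and 173 in Pngl-/- (1.87). The abundant GstD1, a common marker of oxidative stress, changed by under 1.5-fold, from 1068 and 1055 to 1429 and 1368 (0.40). Of 25 UDP-glycosyltransferases, without Ugt35E1, which passed the filter through Pngl-/- alone, 7 were higher and 1 lower. The 57 cytochromes P450 were split, with 14 higher and 11 lower. Cyp4d14 rose from 15.9 and 16.5 to 79.9 and 80.7 (2.31), but its exons share 1629 bases with an antisense RNA. Cyp305a1 rose from 5.06 and 4.45 to 23.6 and 22.5 (2.27). Among 17 antioxidant genes, Prx6b, a peroxiredoxin, fell from 63.3 and 61.9 to 9.22 and 10.5 (−2.66), and Gclm, a subunit of the enzyme that starts glutathione synthesis, rose from 156 and 161 to 244 and 239 (0.61). The catalase gene Cat had a log2 fold change of 0.01 (standard error 0.04).

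Cyp6a17, a P450 known for its part in temperature preference, was next to absent in Pngl-/-. It gave 438 and 366 counts in Pngl+/- and 1 count in each Pngl-/- library. Taking 3 counts per library as the floor, it was at least 132-fold lower. The other libraries with 2 copies of Pngl[ex14], those of Pngl-/-; Pngl Dp/+, held 538 and 777 counts and those of y w 824 and 941. CG14752, the second gene at the floor in Pngl-/-, had 3 counts in each Pngl-/- library and 579 and 523 in Pngl+/-, at least 182-fold lower. It was also low in y w, with 7 and 5 counts, and in Pngl-/-; Pngl Dp/+, with 1 and 0, and was therefore high in Pngl+/- alone. CtsL3, of the cathepsin L family, was the gene at the floor in Pngl+/-, with 1 count in each library against 212 and 234 in Pngl-/-, at least 74.9-fold higher. In y w CtsL3 had 86 and 104 counts and in Pngl-/-; Pngl Dp/+ 371 and 535. CtsL3 lies on 3R, and Cyp6a17 and CG14752 lie on 2R.

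**Figure D4:**
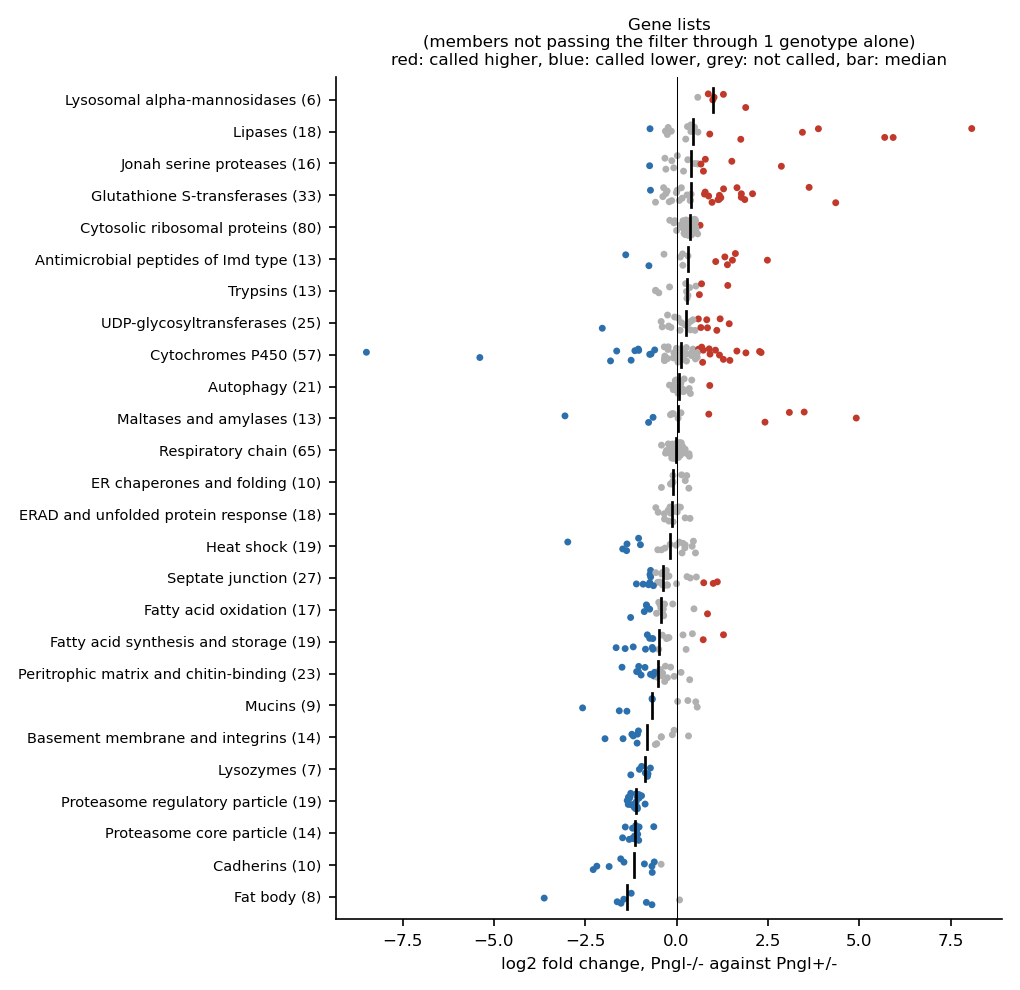
Log2 fold changes of the tested members of 26 gene lists, without members that passed the filter through 1 genotype alone (points, number in brackets), with the median of each list as a black bar. Red points were called higher, blue points lower and grey points not at all. The 14 core and 19 regulatory particle genes of the proteasome lie together left of 0, and the lipases spread from −0.73 to 8.08.

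The lining of the gut lumen was lower in part. Of 9 mucins tested 5 fell, and of 23 peritrophic matrix and chitin-binding genes 10 fell and none rose. Summed over the whole mucin list, however, the level was higher in Pngl-/-, at 8714 and 9007 against 7765 and 6838 in Pngl+/-. It was 6477 and 6485 in y w and 5796 and 6419 in Pngl-/-; Pngl Dp/+. The summed level of the peritrophic matrix and chitin-binding list was 19137.5 and 18576 in Pngl+/- and 13764 and 13964 in Pngl-/-. It was 10031 and 10040 in y w and 8608 and 8684 in Pngl-/-; Pngl Dp/+, all under the level in Pngl-/-. Muc96D was at 1065 and 854 in Pngl+/- and 151 and 171 in Pngl-/- (−2.57, standard error 0.08, adjusted p = 9.60e-13), and Muc68Ca at 152 and 144 in Pngl+/- and 46.9 and 52.6 in Pngl-/- (−1.57). Muc55B and Muc18B were not among them. Muc55B was at 5176 and 4538 in Pngl+/- and 7066 and 7291 in Pngl-/- (0.56), under the threshold, and Muc18B was not called either. The count of 5 mucins was 3 with an offset for exonic length and 3 without Pngl+/- replicate 2. CG4835, a chitin-binding gene, fell from 77.6 and 74.2 to 26 and 27.9 (−1.49), and CG10154, another, from 645 and 636 to 305 and 319 (−1.04). Peritrophin-15a, a small protein of the matrix, was at 3629 and 3628 in Pngl+/- and 2428 and 2605 in Pngl-/- (−0.53), under the threshold. Cht4, a chitinase, rose from 17.7 and 17.2 to 259.9 and 266 (3.91, standard error 0.05).

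Of 27 septate junction genes, 3 rose and 8 fell, and with an offset for exonic length 5 rose and 3 fell. The 3 that rose, hoka, Tsp2A and Ssk, encode membrane proteins of the smooth septate junction that seals the midgut epithelium. hoka went from 61.6 and 59.5 to 131 and 131 (1.11, standard error 0.04), Tsp2A from 134 and 137 to 279 and 263 (1.00) and Ssk from 176 and 171 to 284 and 297 (0.74). mesh, another component of these junctions, was at 261 and 268 in Pngl+/- and 339.7 and 346 in Pngl-/- (0.37). Among those that fell were nrv2 (−1.10) and bark (−0.92).

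Fatty acid synthesis and storage moved down. Of 19 genes, 9 were lower and 2 higher, with a median of −0.49. The summed level of the whole list was 3792 and 3780 in Pngl+/- and 2507 and 2512 in Pngl-/-. It was 2590 and 2579 in y w, close to Pngl-/-, and 3081 and 3139 in Pngl-/-; Pngl Dp/+. Lsd-1, a perilipin of lipid droplets, was at 352 and 343 in Pngl+/- and 109 and 112 in Pngl-/- (−1.66, standard error 0.04, adjusted p = 1.13e-14). ACC, which makes malonyl-CoA, went from 130.5 and 135 to 58.1 and 58.7 (−1.19), AcCoAS, the acetyl-CoA synthetase, from 423 and 417 to 161 and 155 (−1.41) and FASN1, the fatty acid synthase, from 358 and 361 to 204 and 209 (−0.80). FASN1 lost its call with the length offset. For Lsd-1, y w stood at 126 and Pngl-/-; Pngl Dp/+ at 196, both nearer to Pngl-/- than to Pngl+/-. Fatp3, a fatty acid transporter, rose from 25.8 and 27.4 to 62.6 and 66.7 (1.28). Oxidation genes fell as well, 5 of 17 against 1 higher. Their summed level was 2592 and 2647 in Pngl+/- and 1831 and 1801 in Pngl-/-. It was 1810 and 1862 in y w and 2015 and 1949 in Pngl-/-; Pngl Dp/+, so that the Pngl+/- libraries were the ones apart. Acox57D-d, a peroxisomal acyl-CoA oxidase, fell from 71.2 and 68.7 to 28.9 and 29.6 (−1.26) and Mcad, the mitochondrial medium-chain dehydrogenase, from 235 and 238 to 135 and 132 (−0.83). The gene called higher was Hnf4, a nuclear receptor that drives lipid catabolism, at 19.9 and 21.2 in Pngl+/- and 34.5 and 39.3 in Pngl-/- (0.85). Fat body markers were lower in the same libraries (their summed levels are given above), and their part in these values was not tested.

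Fat body transcripts gave some of the largest differences of level. Of 8 fat body genes, 7 were lower, with a median of −1.34. Lsp2, a larval serum protein that stores amino acids, was at 9458 and 9303 in Pngl+/- and 3242 and 3292 in Pngl-/- (−1.52, standard error 0.04, adjusted p = 9.55e-14). Lsp1beta went from 13012 and 12879 to 5484 and 5464 (−1.24) and Lsp1gamma from 23504 and 21759 to 12818 and 12688 (−0.83). Lsp1gamma was at 11372 on average in y w and 13894 in Pngl-/-; Pngl Dp/+, so that the Pngl+/- libraries were the ones apart. For Lsp1alpha, Lsp1beta and Lsp2 both genotypes lay outside the other 4 libraries, on opposite sides. The summed fat body markers, given above for the genotypes compared, were at 31519 and 31147 in y w and 34349.5 and 35663 in Pngl-/-; Pngl Dp/+, between Pngl-/- and Pngl+/-. Fbp2 fell furthest, from 667 and 663 to 51.1 and 56.8 (−3.62), and apolpp, the lipoprotein of the haemolymph, from 656 and 604 to 205 and 203 (−1.63). Fbp1, the receptor for the storage proteins in the fat body, was at 969 and 984 in Pngl+/- and 1025 and 1040.1 in Pngl-/- (0.08, standard error 0.04). The glue genes of the salivary gland fell in 5 of 10 cases, among them Sgs3 from 596 and 567 to 264 and 294 (−1.06) and Sgs1 from 87.9 and 71.5 to 17.5 and 21.7 (−2.02). The summed salivary gland markers were at 4772 and 4715 in y w and 8378 and 8410 in Pngl-/-; Pngl Dp/+. Both Pngl-/- and Pngl+/- lay between these. Of 9 haemocyte genes 4 fell and 1, NimC2, rose, from 3.21 and 2.15 to 18.8 and 20, with y w at 34 on average. Hml, a haemocyte marker, was not called, at 7.56 and 8.69 in Pngl+/- and 5.26 and 5.91 in Pngl-/- (−0.53). Type IV collagen, made by the fat body and haemocytes, fell with them, Col4a1 from 367 and 365 to 165 and 157 (−1.19) and vkg from 183 and 187 to 90 and 86.2 (−1.07). The summed level of Malpighian tubule markers was 213 and 203 in Pngl+/- and 227 and 218 in Pngl-/-.

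Stress pathways were mixed. TotA, a secreted stress peptide downstream of JAK-STAT, rose from 65 and 60 to 540.2 and 534 (3.10, standard error 0.05, adjusted p = 7.55e-16), and Socs36E, the feedback inhibitor of that pathway, from 24.9 and 26.9 to 54.8 and 56.3 (1.10). The ligand upd3 did not pass the filter, at 1.28 and 0.805 in Pngl+/- and 3.64 and 3.58 in Pngl-/-. JAK-STAT and Turandot genes together summed to 192 and 191 in Pngl+/- and 711 and 713 in Pngl-/-. Their sum was 355 and 346 in y w and 489 and 518 in Pngl-/-; Pngl Dp/+, so that Pngl+/- was the lowest genotype and Pngl-/- the highest. In the JNK pathway 1 of 13 genes was higher, the phosphatase puc, from 26.3 and 26.6 to 42.8 and 44.5 (0.72) and the factor Ets21C, which passed the filter through Pngl-/- alone and is not counted, was at 2.65 and 1.72 in Pngl+/- and 7.24 and 6.71 in Pngl-/-. Exons of Ets21C share 1532 bases with nAChRbeta3, which was at 45.1 and 46.3 in Pngl+/- and 4.37 and 4.02 in Pngl-/- (−3.44). In y w and Pngl-/-; Pngl Dp/+ nAChRbeta3 was at 6.69 and 3.99 on average, so that the Pngl+/- libraries were the ones apart. Heat shock genes fell in 6 of 19 cases, leaving out Hsp70Ba, Hsp70Bc and Hsp70Bbb, which passed the filter through the Pngl+/- libraries alone. Hsp70Bb was at 49.4 and 46.7 in Pngl+/- and 6.35 and 5.86 in Pngl-/- (−2.98), with y w at 2.43 and Pngl-/-; Pngl Dp/+ at 3.6. The Hsp70 copies share reads, and for this gene, Hsp70Ba, Hsp70Bc and Hsp70Bbb the Pngl+/- libraries stood above all 6 others. The cytosolic chaperones Hsc70-4 and Hsp83 had log2 fold changes of 0.52 and −0.01.

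AsnS, the asparagine synthetase and a target of the factor ATF4, fell from 114 and 115 to 17 and 17.1 (−2.75, standard error 0.05, adjusted p = 8.79e-16), while only 2 of 29 genes of its list were called lower and none higher. Pepck2, a phosphoenolpyruvate carboxykinase, fell from 76.5 and 78.3 to 16.4 and 15.5 (−2.28), Pgi, of glycolysis, from 326 and 307 to 178 and 174 (−0.85), and Hex-C, a hexokinase of the fat body and gut, rose from 3.59 and 3.06 to 12.3 and 12 (1.86). ImpL2, a secreted inhibitor of insulin signalling, rose from 38.7 and 37.3 to 76.6 and 72.6 (0.97). Thor and InR, on the same list of insulin and Foxo genes, had log2 fold changes of −0.03 and −0.37. The activity of the pathway was not tested. None of 65 respiratory chain genes, 68 mitochondrial ribosomal proteins and 11 genes of Dpp signalling was called in the main edgeR fit. With an offset for exonic length, 1 of the Dpp signalling genes was called higher. Log2 fold changes ran from −0.41 to 0.35 in the respiratory chain and from −0.58 to 0.49 in Dpp signalling. Cytosolic ribosomal protein genes lay above 0 in 76 of 80 cases, with a median of 0.38, under the threshold. Of these 80 genes 1 was called higher, and 9 were with TMM factors from all genes.

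Of 18 ecdysone response genes 5 were lower and 5 higher. With an offset for exonic length, 2 were lower and 6 higher, and the median of the list went from −0.19 to 0.13. The lower count was 3 without Pngl-/- replicate 1. br, an early response factor, fell from 37.8 and 40 to 16.1 and 16.4 (−1.26), EcR, the receptor, from 23.8 and 24.4 to 13 and 16 (−0.73), and Eig71Ee, an ecdysone-induced late gene, from 899.9 and 835 to 271 and 278 (−1.66, standard error 0.05). E23, a transporter of the early set, rose from 2.46 and 2.2 to 5.52 and 6.41 (1.35). Genes of progenitors, Notch and EGFR fell in 8 of 20 cases. CycA, a mitotic cyclin, went from 18.8 and 18.1 to 10.4 and 10.5 (−0.82) and Delta, the Notch ligand of the stem cells, from 2.41 and 3.06 to 1.25 and 1.54 (−0.96). Enteroendocrine genes were divided, with 2 of 18 higher and 3 lower. Dh31, a diuretic hormone, rose from 11.2 and 11.3 to 19.6 and 20.2 (0.82), 7B2, a chaperone of peptide processing, fell from 41.8 and 43.9 to 20.1 and 19 (−1.13), and the peptides Tk and NPF had log2 fold changes of 0.41 and 0.30.

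Markers of sex differed between the pools. The male-specific dosage compensation RNA lncRNA:roX1 was at 81.7 and 72.9 in Pngl+/- and 165 and 165 in Pngl-/- (1.09, standard error 0.05, adjusted p = 3.12e-11), and lncRNA:roX2 at 5.15 and 7.3 in Pngl+/- and 11.6 and 13.5 in Pngl-/- (1.02). Yp3, a yolk protein gene expressed in females, fell from 91.2 and 102 to 14.1 and 13.7 (−2.79), and Sxl, the female sex determination gene, from 34.7 and 34.3 to 19.8 and 20.8 (−0.77). Of 9 tested genes of dosage compensation and sex, 2 were called lower, and 1 with an offset for exonic length. The roX RNAs were higher and Yp3 and Sxl lower in both Pngl-/- libraries. Yp3 stood at 6.22 in y w and 6.56 in Pngl-/-; Pngl Dp/+. The testis gene betaTub85D had 0 counts in both Pngl-/- libraries and 1.04 and 1.45 normalized CPM in Pngl+/-. The pools mixed the sexes in shares the labels do not give, and the part of the sex ratio in other results was not tested.

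Longer genes were lower more often. When the genes with an annotated length were split into 8 bins by exonic length, 13.6% of the shortest bin (198 to 875 bases) was called higher and 13.2% lower. In the longest bin (5204 to 71820 bases) 2% was called higher and 29.1% lower, and the median log2 fold change was −0.35 against 0.01 in the shortest. The same bins had medians of −0.12 and 0.13 in Pngl-/-; Pngl Dp/+ against y w, a comparison of 4 other libraries. With an offset for the trend of each library on exonic length, chosen after seeing the data, 8.95% of the longest bin was called lower, and the totals became 652 higher and 779 lower. Several groups of long genes were affected by the offset. Of 10 cadherins 9 were lower (median −1.16, median length 9841 bases), and 6 with the offset. Of 27 genes for axon guidance receptors and ligands 14 were lower, and 5 with it. Of 14 basement membrane and integrin genes 7 were lower, and 5 with it. The smallest chromosome, 4, had 24 of 65 genes lower and 1 higher, with a median of −0.43, and its genes had a median exonic length of 4407 bases.

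**Figure D5:**
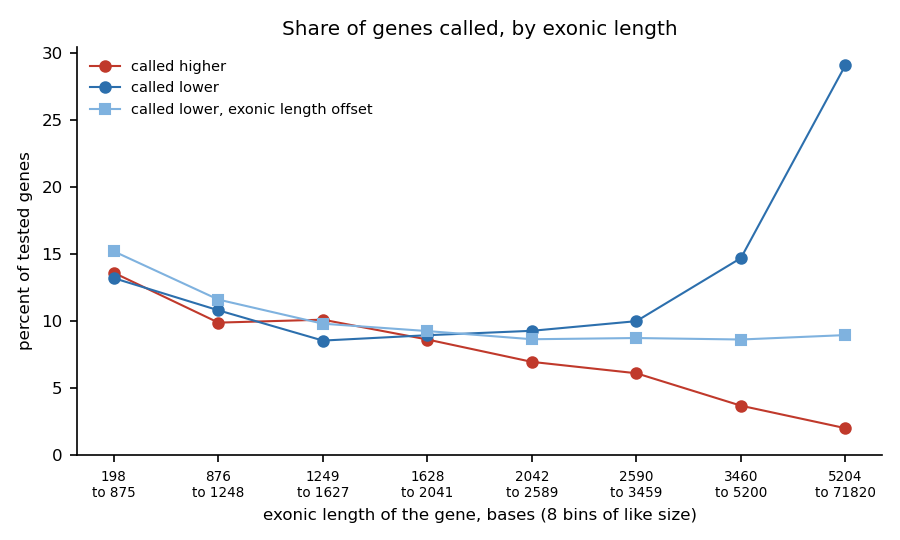
Share of the tested genes called higher (red circles), called lower (blue circles) and called lower with an offset for exonic length (light blue squares) in 8 bins of exonic length with about the same number of genes. Called-lower genes reach 29.1% in the longest bin and 8.95% there with the offset, and called-higher genes go from 13.6% to 2%.

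Because the heterozygotes carried a balancer in place of one second chromosome, the calls were also counted by chromosome. On chromosome 2, 9.42% of 2931 genes were higher and 13.9% lower, and on X and chromosome 3 together 6.57% of 4594 were higher and 12.3% lower. Changes of at least 4-fold were called in 2.52% of the genes of chromosome 2 and 1.41% of those of X and 3. In Pngl-/-; Pngl Dp/+ against y w, where neither genotype carries CyO but the second chromosomes differ as well, 13.8% of the genes of chromosome 2 and 11.8% of those of X and 3 were called. Within 1 Mb of Pngl, 9 of 90 genes were higher and 6 lower, 16.7% in all, beside 24.1% over the whole arm 2R. The genotype at Pngl, the balancer and the rest of the second chromosome cannot be told apart in these libraries.

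The libraries of y w and Pngl-/-; Pngl Dp/+ show which of the 2 genotypes stood apart. For 318 of the 581 higher genes both Pngl-/- libraries lay above all of those 4 libraries while Pngl+/- did not lie below them all. For 118 it was the Pngl+/- libraries that lay outside, below the other 6, and for 126 genes both genotypes lay outside on opposite sides. Of the 1005 lower genes, 654 had Pngl-/- alone outside, 158 Pngl+/- alone and 168 both. Among the largest folds, CG2444 fell from 605 and 620.2 to 63.1 and 67.4 (−3.23), with y w at 79.5 and Pngl-/-; Pngl Dp/+ at 85.8, so Pngl+/- was above every other genotype. CG43084 (−3.01) and CG12896 (−3.03) likewise had both Pngl+/- libraries above all 6 others. In contrast CG5096, from 228 and 213 to 12.4 and 14 (−4.06), and CG17134, an aspartic protease gene, from 171 and 166 to 19 and 20.2 (−3.11), were low in Pngl-/- alone. The comparison of Pngl-/-; Pngl Dp/+ with y w, which shares no library with this one, called 520 genes higher (6.78%) and 435 lower (5.68%). Of the 581 genes higher here, 124 were higher and 95 lower there, and of the 1005 lower here, 115 were lower and 101 higher there.

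A few calls rest on 1 library. The 2 libraries of Pngl+/- differed by at least 10-fold in 6 tested genes with at least 50 counts in the higher library, each time with more in replicate 1, and no gene differed so in Pngl-/-. All 6 were called lower. One of them, asRNA:CR11538, is antisense to Lsp2, with 2096 overlapping bases, and gave 3341 counts in Pngl+/- replicate 1, 62 in replicate 2, and 12 and 28 in Pngl-/-. It also split in Pngl-/-; Pngl Dp/+, at 57.7 normalized CPM in replicate 1 and 1.27 in replicate 2, and was at 15 and 26.4 in y w. Without Pngl+/- replicate 1 its log2 fold change was −1.71 and it was not called, against −6.32 (standard error 1.75) with it. It was not called without either Pngl-/- replicate (edgeR adjusted p = 0.0581 and 0.0517). The other 5, named after their values were seen, were CG42585, asRNA:CR45343, CG14743, BBS1 and asRNA:CR45874.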

How the data were processed

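RNA from larval midguts was sequenced as stranded mRNA libraries, 2 for each of 4 genotypes. The authors deposited raw read counts per gene. Per the labels, reads were trimmed with cutadapt (version 1.4) and aligned with STAR (version 2.5.3) to dm6, and edgeR was used. The study counted reads over collapsed exons of the FlyBase annotation, and the use of strand and of multiply mapped reads is not given in the sources used here. The counts were used as deposited. Genes were matched to symbols by FlyBase identifier, 17582 of 17713, and the others keep their identifier.

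Genes with at least 5 CPM in at least 2 libraries were kept, scaled by TMM and tested with edgeR 4.0.16 in R 4.3.3, with the quasi-likelihood test, 1 mean per genotype over all 8 libraries and 4 residual degrees of freedom. P-values were adjusted over all 7665 genes by Benjamini-Hochberg. Totals over the 8 libraries ran from 20414011 to 28382919 counts, and 2 libraries a genotype limit the precision. The labels give separate replicates and the study calls them biological, but nothing names the cultures, so p-values measure the spread between these libraries. The script was tested on simulated counts. The comparison and the 59 gene lists were chosen with earlier results of these data known. Named genes were Pngl, the 12 largest folds each way among called genes with at least 20 normalized CPM in a genotype and above 3 counts in each library, the 8 largest rises and falls of level, genes at the floor of 3 counts, and from each list the largest changes and highest levels. Genes named outside that rule are background to a list. Alternatives were edgeR's likelihood ratio test, DESeq2 1.42.0, other scaling factors, other filters, a test against a 1.5-fold change, a fit of the 4 libraries alone, a replicate block, leaving out each replicate, leaving out overlapping genes and, chosen after seeing the data, an offset for exonic length. No promoter or sequence table was used here, so the planned count of motifs in proteasome promoters was not run.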

Additional observations from a re-analysis of the deposited data

How the results depend on the processing

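The main counts of 581 higher and 1005 lower genes stayed within 1.5 times under the likelihood ratio test, DESeq2 (600 and 975), the other scalings, a filter of 1 CPM (855 and 1310) and the 4 libraries alone (571 and 723). With no filter they were 943 and 1691, over 15307 genes tested. In that fit edgeR's prior degrees of freedom were infinite (10.5 in the fit reported), so the spread of each gene's own libraries did not enter its test, and these 2 counts say little about replicate error. A test against a 1.5-fold change called 404 higher and 567 lower, with 14.7% of chromosome 2 and 11.2% of X and 3 called. With TMM factors from all genes 725 were higher and 855 lower, so that 45.9% of calls were higher against 36.6%, and all log2 fold changes moved by a median of 0.08. With the offset for exonic length, 652 were higher and 779 lower, 45.6% of calls being higher. Leaving out 1 replicate gave 567 to 609 higher and 984 to 1015 lower genes. Without genes whose exons overlap another, 521 and 673 of 5101 were called. Msp300, a long muscle gene, was the only named gene that reversed, from −0.92 to 0.10 with the length offset.

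With the replicate number as a block, 580 genes were higher and 1002 lower, and 580 and 1000 of these were shared with the fit without it. Same-numbered libraries of the 2 genotypes did not deviate together (correlation −0.03), so the numbers were not treated as pairs. Between Pngl+/- and Pngl-/-; Pngl Dp/+, whose libraries also entered the fit, this correlation was 0.38, the largest of any 2 genotypes.

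With 2 libraries a genotype, a sample that stands apart in its genotype cannot be told from its partner. Low genes are limited by depth: 3 counts, the floor used, is 0.153 normalized CPM in Pngl-/-.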
